A study of Mus musculus with 12 samples.

Results

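The genes described here are 38 heat shock and endoplasmic reticulum (ER) stress genes, chosen by symbol from the 36047 genes of a table of normalized counts, and all 38 were found in it, each with 1 row. They fall into 13 cytosolic heat shock genes, 3 mitochondrial chaperones, 14 ER genes of folding and degradation, and 8 ER stress sensors and transcription factors. They were measured by RNA sequencing in 3 subsets of eosinophils from the proximal small intestine (SI) of wild-type C57BL/6J mice, with 4 libraries per subset and 12 in all. The subsets were sorted on integrin α4β7, which guides leukocytes to the gut, and on the lectin CD22, as α4β7+, α4β7− CD22−, and CD22+ cells, which the study treats as approximately younger, intermediate, and older cells. All libraries came from live CD45+ CD11b+ SiglecF+ MHCII− Ly6G− cells of the lamina propria, with 2 mice pooled per library and no treatment or altered allele in any group. The labels give female mice for these samples and no age, whereas the study's methods mention both sexes and state an age range for its experiments. The cells were released from the tissue by enzyme digestion with warming before the sort, which all 3 subsets went through, so a response to isolation cannot be told apart from the level in the tissue.

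Chaperones bind unfolded proteins and help them to fold, and each compartment of the cell has its own set. In the cytosol, the HSP70 and HSP90 families work with J-domain proteins and other cochaperones, and the transcription factor HSF1 raises many of them upon heat or other proteotoxic stress through heat shock elements in their promoters. In the ER, unfolded proteins draw the HSP70 protein BiP (Hspa5) away from the sensors IRE1α (Ern1), PERK (Eif2ak3), and ATF6, and the resulting unfolded protein response raises chaperones, components of ER-associated degradation, and, through ATF4, genes of the integrated stress response. Eosinophils carry preformed granule proteins and are postmitotic in tissue, so their demand for protein folding need not match that of a cell that is still building its granules.

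The normalized counts of a library summed to between 14286474 and 16915755, and the sums themselves differed between subsets, with 15783607 to 16915755 in α4β7+, 15011473 to 15740374 in α4β7− CD22−, and 14286474 to 14758267 in CD22+ libraries. The eosinophil markers Siglecf (6884 to 8594 normalized counts) and Ccr3 (10103 to 28671) were present in every library. Ccr3 was called lower in both comparisons with α4β7+, at 22535 to 28671 in α4β7+, 14526 to 16376 in α4β7− CD22−, and 10103 to 11289 in CD22+ libraries. The granule protein gene Prg2 was also called lower in both, and Epx and Il5ra in CD22+ libraries. The 8 eosinophil markers summed to 72140 to 83752, 58778 to 61120, and 58783 to 62667 in the same order. This sum includes the sorting genes Itga4, Itgb7, and Cd22. Cd22 rose with the gate, with means of 1115, 4462, and 13334, so the sum hides the further fall of Ccr3 and Il5ra in CD22+ libraries. The sorting markers followed the gates, with Itgb7 at 1838 to 3058 in α4β7+ and 98.7 to 304 in the other libraries and Cd22 highest in CD22+ libraries (11553 to 14766). Markers of plasma cells, which are rich in ER chaperones, were also counted. The sum of all 7 was 14851 to 32857 in α4β7+, 10741 to 33277 in α4β7− CD22−, and 15356 to 36027 in CD22+ libraries, mostly from Igha and Jchain, so the ranges overlapped. Of the other marker lists, the sum of 11 enterocyte markers was 3646 to 7927, 2816 to 5630, and 1854 to 8814 in the same order, and 6 neutrophil markers summed to at most 62.3, with Elane at 0 in all libraries. The 7 Paneth and goblet cell markers summed to 1198 to 3860, 425 to 1394, and 840 to 3731. Fcgbp had the highest mean of them in each subset (1504 ± 666, 536 ± 267, and 877 ± 753, SD). Of the markers of other cell types, 4 were called in a comparison with α4β7+. The T cell genes Cd3e (log2 fold change −1.11) and Cd8a (−0.92) were lower in α4β7− CD22− libraries, the macrophage gene Cd68 was higher in both (0.95 and 1.18), and the neutrophil gene S100a9, with an average of 10.5, was lower in CD22+ libraries. The 7 T cell and innate lymphoid cell markers summed to 888 to 1480, 584 to 906, and 869 to 1368 normalized counts, and the 8 macrophage and monocyte markers to 19000 to 20816, 18104 to 20531, and 16048 to 18319. Adgre1 (12892 to 18098 over all libraries) and Csf1r (1230 to 1980) made up most of the latter sum. C1qa, C1qb, and C1qc lay between 70.7 and 388. The part of the marker differences and of other cells in the members' levels was not tested. Since the samples are bulk RNA, fewer cells of a type and less RNA per cell cannot be told apart.

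The levels of the members spanned a wide range. Set per length, as normalized counts per kilobase of exon, the constitutive cytosolic HSP70 gene Hspa8 had the highest mean over the 12 libraries (4843), with 5708 ± 624 in the α4β7+, 4485 ± 348 in the α4β7− CD22−, and 4335 ± 535 in the CD22+ subset (SD, n = 4 each). In α4β7− CD22− libraries Atf4 was level with it (4571 ± 390), and in CD22+ libraries Atf4 (3919 ± 393) and Hspa8 also lay within their spread. Next over all libraries were Atf4, the ER HSP90 gene Hsp90b1, Hspa5, and the cytosolic HSP90 genes Hsp90ab1 and Hsp90aa1, with means per kilobase over the 12 libraries of 3986, 3686, 2644, 2604, and 2014. This order was not that of each subset. In α4β7+ libraries Hspa5 came after Hspa8 (4039 ± 245), followed by Hsp90b1 (3623 ± 86.6), Atf4 (3468 ± 219), and Hsp90ab1 (3370 ± 216), and neighbors among the last 3 differed by less than their spread. In α4β7− CD22− libraries Hspa5 (2104 ± 67.9) was below Hsp90ab1 (2475 ± 128). Several genes known for their strong induction by heat lay at the other end. Hspa1a and Hspa1b, the stress-inducible HSP70 genes, had means per kilobase of 7.70 and 11.6 over the 12 libraries, and the small heat shock protein gene Hspb1 had 4.74. The transcripts of Hspa1a and Hspa1b share 74.0% and 78.5% of their length at 99.2% identity, so how their few reads were divided between them is uncertain.

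**Figure D1:**
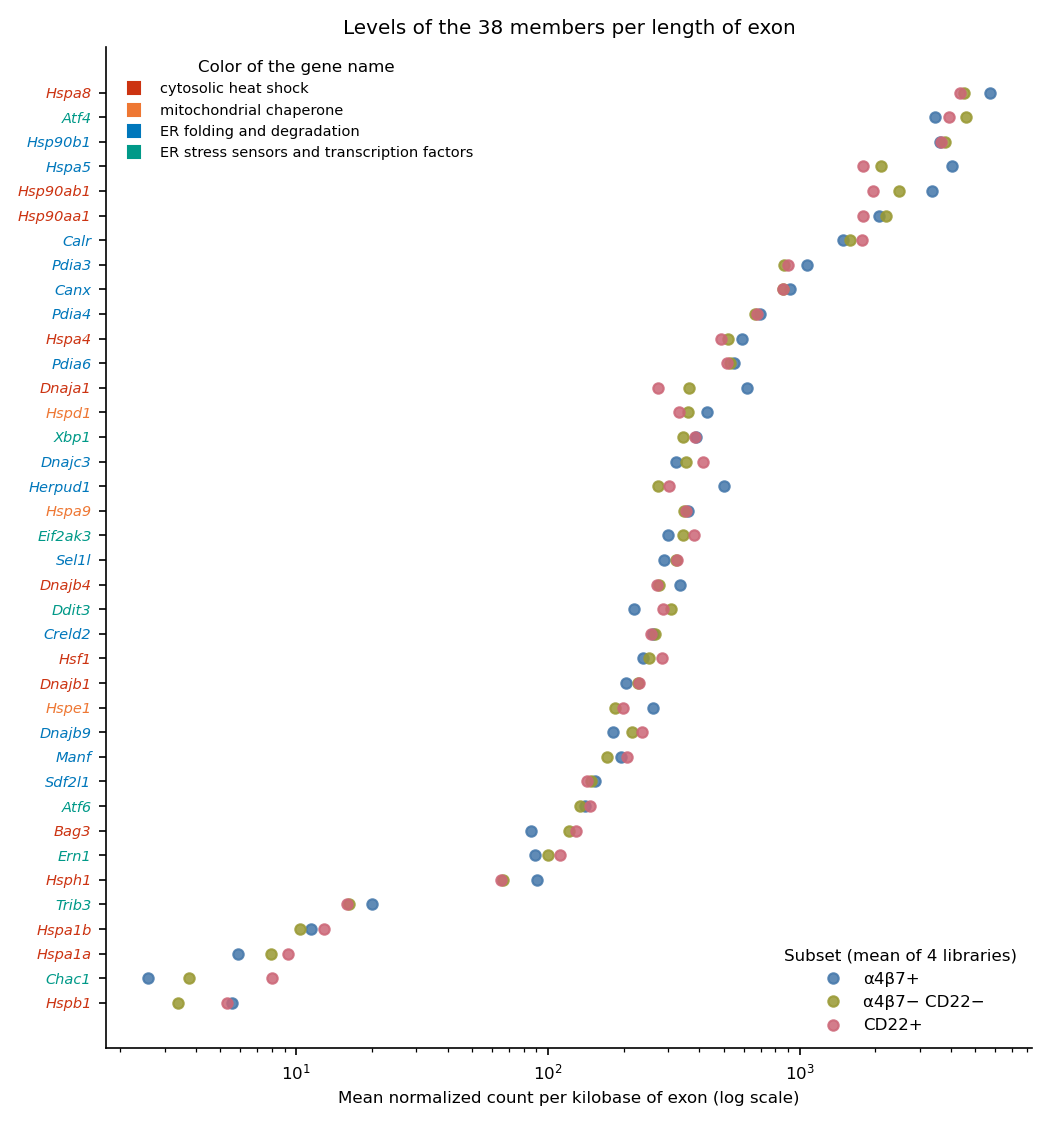
Mean normalized count per kilobase of exon (log scale) of the 38 members, 1 point per subset (mean of 4 libraries), with members ordered by their mean over all 12 libraries and gene names colored by class. Hspa8, Atf4, Hsp90b1, and Hspa5 lie above 1000 in every subset, whereas Hspa1a, Hspa1b, Hspb1, Chac1, and Trib3 lie at or below 20.

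Which of these genes differed between the subsets was tested with limma on log2(normalized count + 1) over all genes with an average normalized count above 10, which 36 of the 38 members passed and Hspb1 and Chac1 did not. A call needed both a p of 0.05 or less after Benjamini-Hochberg adjustment over all 15249 genes tested and a change of 1.5-fold or more. Between α4β7− CD22− and α4β7+ libraries, 3 members fell (Hspa5, Herpud1, and Dnaja1) and 0 rose, against a background of 4.35% of all genes tested called lower and 3.70% called higher. With the adjusted p alone, 6 members were lower and 2 higher, against 7.73% and 7.13% of all genes. Between CD22+ and α4β7+ libraries, 4 members fell (Hspa5, Dnaja1, Hsp90ab1, and Herpud1) and 1 rose (Bag3), against 6.39% and 5.60% of all genes, and with the adjusted p alone 7 were lower and 4 higher, against 11.1% and 10%. Both comparisons share the α4β7+ libraries. The median log2 fold change of the 36 members was −0.059 and −0.016, beside 0.003 and 0.014 for all genes tested, so the list as a whole stayed near the median gene while single members moved by more than 2-fold. Rescaling the libraries to equal totals, an alternative chosen after the data were seen, gave 2 members higher (Bag3 and Ddit3) and 3 lower in the first comparison, against 5.38% and 3.31% of all genes under that scaling, and 1 higher and 3 lower in the second, against 9.91% and 4.52%. Quantile normalization gave 0 higher and 4 lower in the second, against 5.71% and 6.16%. By the adjusted p alone, equal totals turned the balance of the members to 6 higher and 4 lower in the first comparison, against 11.8% and 5.63% of all genes, and to 12 higher and 4 lower in the second, against 20% and 7.44%. The median log2 fold change of all genes was itself 0.097 and 0.17 in place of 0.003 and 0.014 under that scaling, so which way most members leaned at this threshold depended on the scaling. Of the members past the adjusted p alone and not called, Atf4 and Hsp90ab1 in the first comparison and Dnajc3 and Eif2ak3 in the second passed it under each of 22 alternatives, whereas Hspa8 (11), Pdia3 (14), and Bag3 (5) in the first and Hspa8 (2), Hspa4 (12), Hspd1 (4), and Calr (10) in the second missed it under the number of alternatives given in parentheses.

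**Figure D2:**
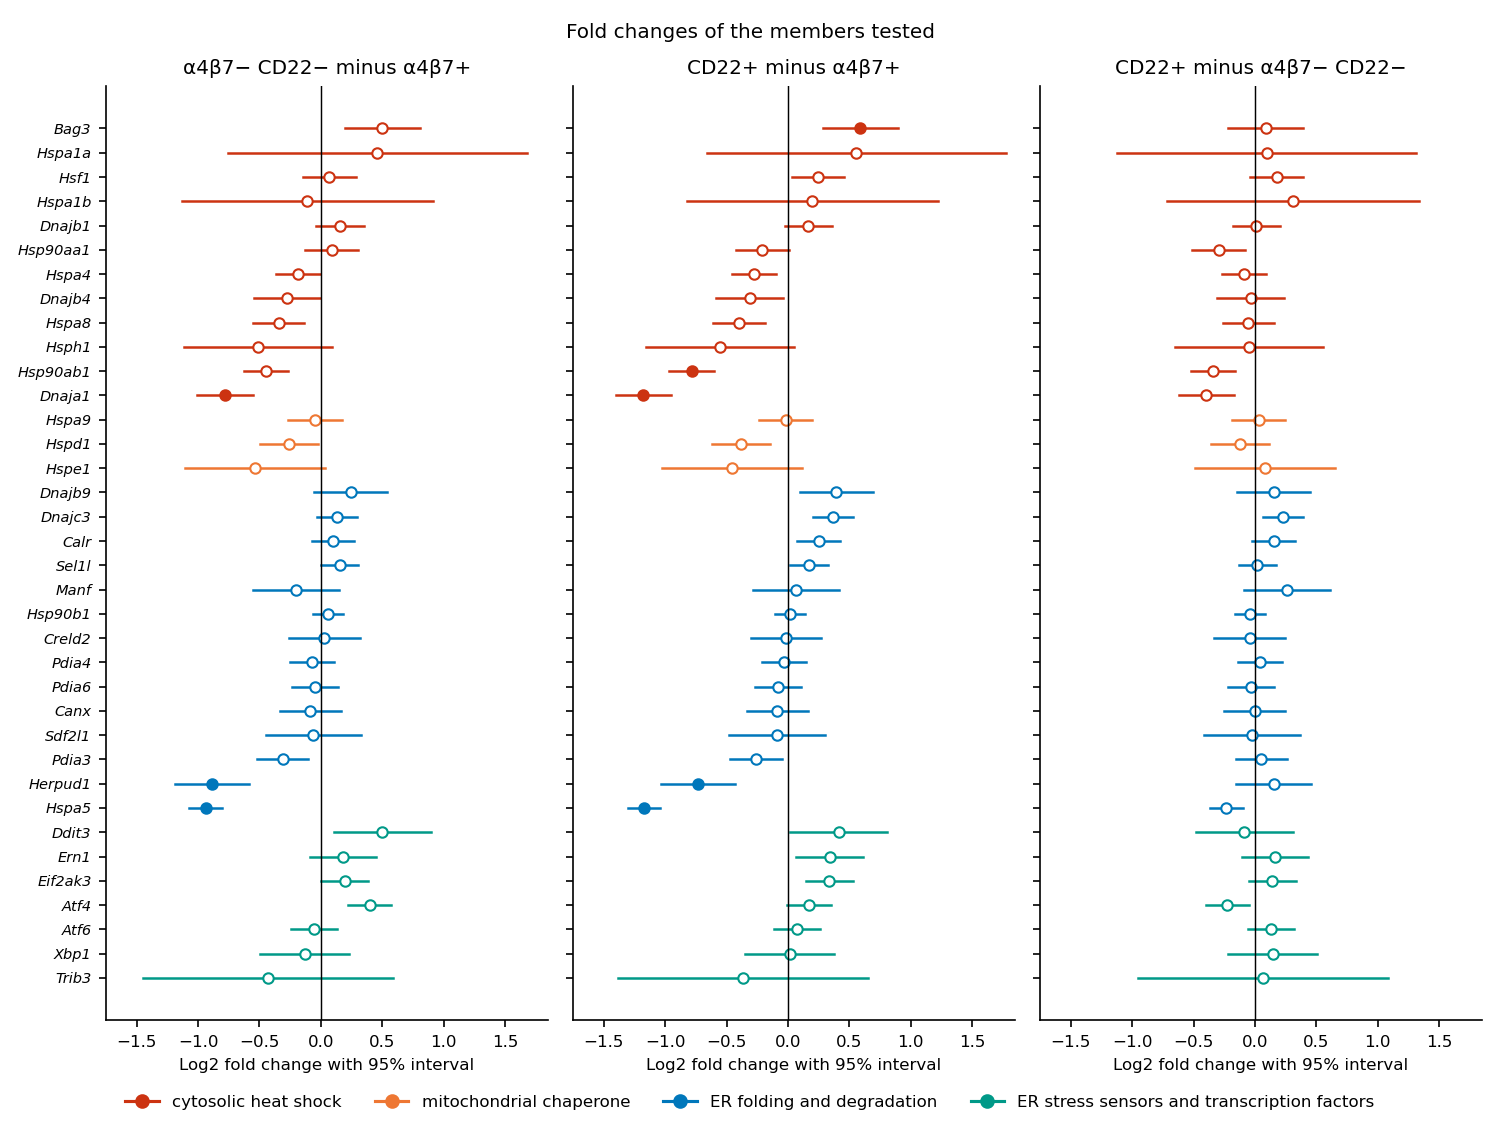
Log2 fold change with its 95% interval (limma) of the 36 members tested in the 3 comparisons of subsets, colored by class, with filled points for members that passed both thresholds of a call. Hspa5, Herpud1, and Dnaja1 are called lower in both comparisons with α4β7+, Hsp90ab1 lower and Bag3 higher in the second, and no member is called between CD22+ and α4β7− CD22−.

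Among the ER genes of folding and degradation, Hspa5 changed the most. It lies at chr2:34771970-34777547 (GRCm38, plus strand) and encodes BiP, the main HSP70 chaperone of the ER and the protein that holds the stress sensors inactive. Its normalized counts were 15668, 13793, 15706, and 15487 in the α4β7+ libraries, 7699, 8202, 8017, and 7677 in the α4β7− CD22− libraries, and 6359, 7122, 6700, and 6694 in the CD22+ libraries. Every α4β7+ library lay above all 8 others, and the ranges of the latter 2 subsets did not overlap either. Hspa5 was thus 1.92-fold lower in α4β7− CD22− than in α4β7+ libraries (log2 fold change −0.94, SE 0.062, limma adjusted p = 2.08e-07) and 2.26-fold lower in CD22+ libraries (−1.17, SE 0.062, adjusted p = 5.83e-09).

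Hsp90b1, which encodes the HSP90 chaperone of the ER and is commonly induced together with Hspa5, did not fall with it. Its normalized counts were 10294, 9876, 10414, and 10359 in α4β7+, 11083, 10487, 9907, and 11113 in α4β7− CD22−, and 10312, 10068, 10198, and 10829 in CD22+ libraries, so the subsets overlapped. Its log2 fold change was 0.056 in α4β7− CD22− (95% interval −0.067 to 0.18) and 0.016 in CD22+ libraries (−0.11 to 0.14) against α4β7+, which does not reach the change of Hspa5. In the second comparison it passed the adjusted p, in the direction of higher levels, with equal totals (0.17, limma adjusted p = 0.0437) and with quantile normalization (0.23, adjusted p = 0.00896).

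The promoters of the ER genes were read for the motifs that the stress transcription factors use, since members that share a motif can be compared. RefSeq promoters of GRCm38.p6, from 250 bases before to 50 after the start site, were at hand for 31 of the 38 members, all but Hsp90ab1, Hspa8, Hsp90aa1, Hsf1, Hspa9, Atf6, and Manf. On both strands, the ER stress element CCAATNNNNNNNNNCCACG, bound by NF-Y and ATF6, was found at 7 of these 31 members and in 39 of all 32851 promoters (0.119%). The 7 are Hspa5, Hsp90b1, Calr, Canx, Pdia6, Creld2, and Dnajc3, and their matches are shown with 5 bases on each side, read 5′ to 3′ on the strand of the gene, with the match in capitals. Hsp90b1 has a pair of them, and the matches at Calr, Creld2, and the second of Hsp90b1 read as the reverse complement. In GENCODE, where Hspa5 starts at 34771970 and thus further upstream, the Hspa5 match lies inside the gene.
Hspa5 (chr2:34772020-34772048, plus): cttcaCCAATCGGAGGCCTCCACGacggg
Hsp90b1 (chr10:86705633-86705661, minus): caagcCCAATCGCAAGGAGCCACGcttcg
Hsp90b1 (chr10:86705528-86705556, minus): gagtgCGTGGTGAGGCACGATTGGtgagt
Calr (chr8:84847070-84847098, minus): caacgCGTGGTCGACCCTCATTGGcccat
Canx (chr11:50325795-50325823, minus): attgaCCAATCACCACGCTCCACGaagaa
Pdia6 (chr12:17266486-17266514, plus): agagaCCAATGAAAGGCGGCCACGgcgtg
Creld2 (chr15:88819515-88819543, plus): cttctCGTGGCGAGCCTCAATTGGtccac
Dnajc3 (chr14:118937822-118937850, plus): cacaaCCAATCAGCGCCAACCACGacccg

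Of these 7 members with the same element, Hspa5 alone was called lower in the 2 comparisons with α4β7+. The log2 fold changes of the other 6 ranged from −0.086 (Canx) to 0.13 (Dnajc3) in α4β7− CD22− and from −0.087 (Canx) to 0.36 (Dnajc3) in CD22+ libraries. Calr, which encodes the calcium-binding lectin chaperone calreticulin, and Dnajc3, a J-domain cochaperone of BiP, were even higher in CD22+ than in α4β7+ libraries by the adjusted p alone (log2 0.25, adjusted p = 0.0395, and 0.36, adjusted p = 0.00294, limma). For Hsp90b1, the wider stretch at chr10:86705510-86705694 (minus strand), which ends before the first base of the gene in RefSeq and in GENCODE, shows how its 2 elements, in capitals, are placed.
Hsp90b1, before the start site: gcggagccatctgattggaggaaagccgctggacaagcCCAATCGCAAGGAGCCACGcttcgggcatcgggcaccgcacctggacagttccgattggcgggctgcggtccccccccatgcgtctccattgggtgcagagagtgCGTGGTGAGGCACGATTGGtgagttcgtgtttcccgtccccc

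Herpud1, at chr8:94386438-94395377 (plus strand), encodes an ER membrane protein of ER-associated degradation and was the other ER gene to fall. Its normalized counts were 878, 1124, 904, and 1015 in α4β7+, 427, 518, 596, and 590 in α4β7− CD22−, and 481, 530, 705, and 659 in CD22+ libraries. The α4β7+ libraries lay above all others, while α4β7− CD22− and CD22+ libraries overlapped. The log2 fold change was −0.89 (SE 0.14, limma adjusted p = 5.86e-04) in α4β7− CD22− and −0.73 (SE 0.14, adjusted p = 0.00161) in CD22+ libraries. With libraries rescaled to equal totals, the second was −0.58 (adjusted p = 0.00963), which is below the fold change required, although the median of all genes moved to 0.17 under that scaling and Herpud1 lay at −0.75 relative to it. Its promoter held neither the ER stress element nor the element TGACGTGG, which was at 0 of the 31 members and in 0.676% of all promoters. It held TTGCATCA, a composite element that ATF4 can bind, as did that of Chac1 (0.895% of all promoters), and, in a search added after the sequence was seen, the ER stress element II ATTGGNCCACG, which was in 12 of all 32851 promoters (0.0365%). Both are in capitals in the 250 bases before the start site at chr8:94386179-94386428, with TTGCATCA first.
Herpud1, before the start site: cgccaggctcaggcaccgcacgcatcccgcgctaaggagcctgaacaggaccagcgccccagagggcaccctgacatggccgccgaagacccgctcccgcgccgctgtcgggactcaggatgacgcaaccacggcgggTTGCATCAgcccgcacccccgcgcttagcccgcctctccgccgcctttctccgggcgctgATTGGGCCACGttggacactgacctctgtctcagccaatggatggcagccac

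No other ER gene of folding and degradation was called. Canx (calnexin, the membrane-bound partner of calreticulin), the disulfide isomerase genes Pdia4 and Pdia6, and the stress-inducible Sdf2l1, Manf, and Creld2 had log2 fold changes between −0.20 and 0.066 in both comparisons with α4β7+, and none passed the adjusted p. Pdia3, the disulfide isomerase that works with the lectin chaperones, was lower in α4β7− CD22− libraries by the adjusted p alone (−0.31, adjusted p = 0.0449) and did not pass in CD22+ libraries (−0.26, adjusted p = 0.0757), nor with equal totals in the first (−0.22, adjusted p = 0.139). The BiP cochaperone gene Dnajb9 averaged 446 ± 69.4, 529 ± 90.9, and 583 ± 44.9 in α4β7+, α4β7− CD22−, and CD22+ libraries (SD, n = 4 each), and its difference between CD22+ and α4β7+ did not pass (log2 0.40, limma adjusted p = 0.0563), although the libraries of these subsets did not overlap and it passed with equal totals (0.55, adjusted p = 0.00583). Sel1l, the adaptor of the ubiquitin ligase HRD1, had log2 fold changes of 0.15 and 0.17 (adjusted p = 0.187 and 0.108), and it passed in both with equal totals (0.25 and 0.33, adjusted p = 0.0225 and 0.00247).

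Because Hspa5 is so abundant, it carried most of the change of the ER class as a whole. In the order α4β7+, α4β7− CD22−, and CD22+, the 14 genes summed to 44324 ± 1224, 36709 ± 1366, and 36269 ± 996 normalized counts, whereas the other 13 without Hspa5 summed to 29161 ± 1194, 28810 ± 1555, and 29550 ± 1112 (SD, n = 4 each). The ratio of Hspa5 to Hsp90b1 within a library averaged 1.48 ± 0.057, 0.744 ± 0.061, and 0.65 ± 0.043 in the same order, and that of Herpud1 to Sel1l averaged 0.538 ± 0.081, 0.264 ± 0.052, and 0.29 ± 0.066. Ratios within a library do not depend on how libraries were scaled by a single factor. The pairs were chosen after their values were seen, so no test was run on them.

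**Figure D3:**
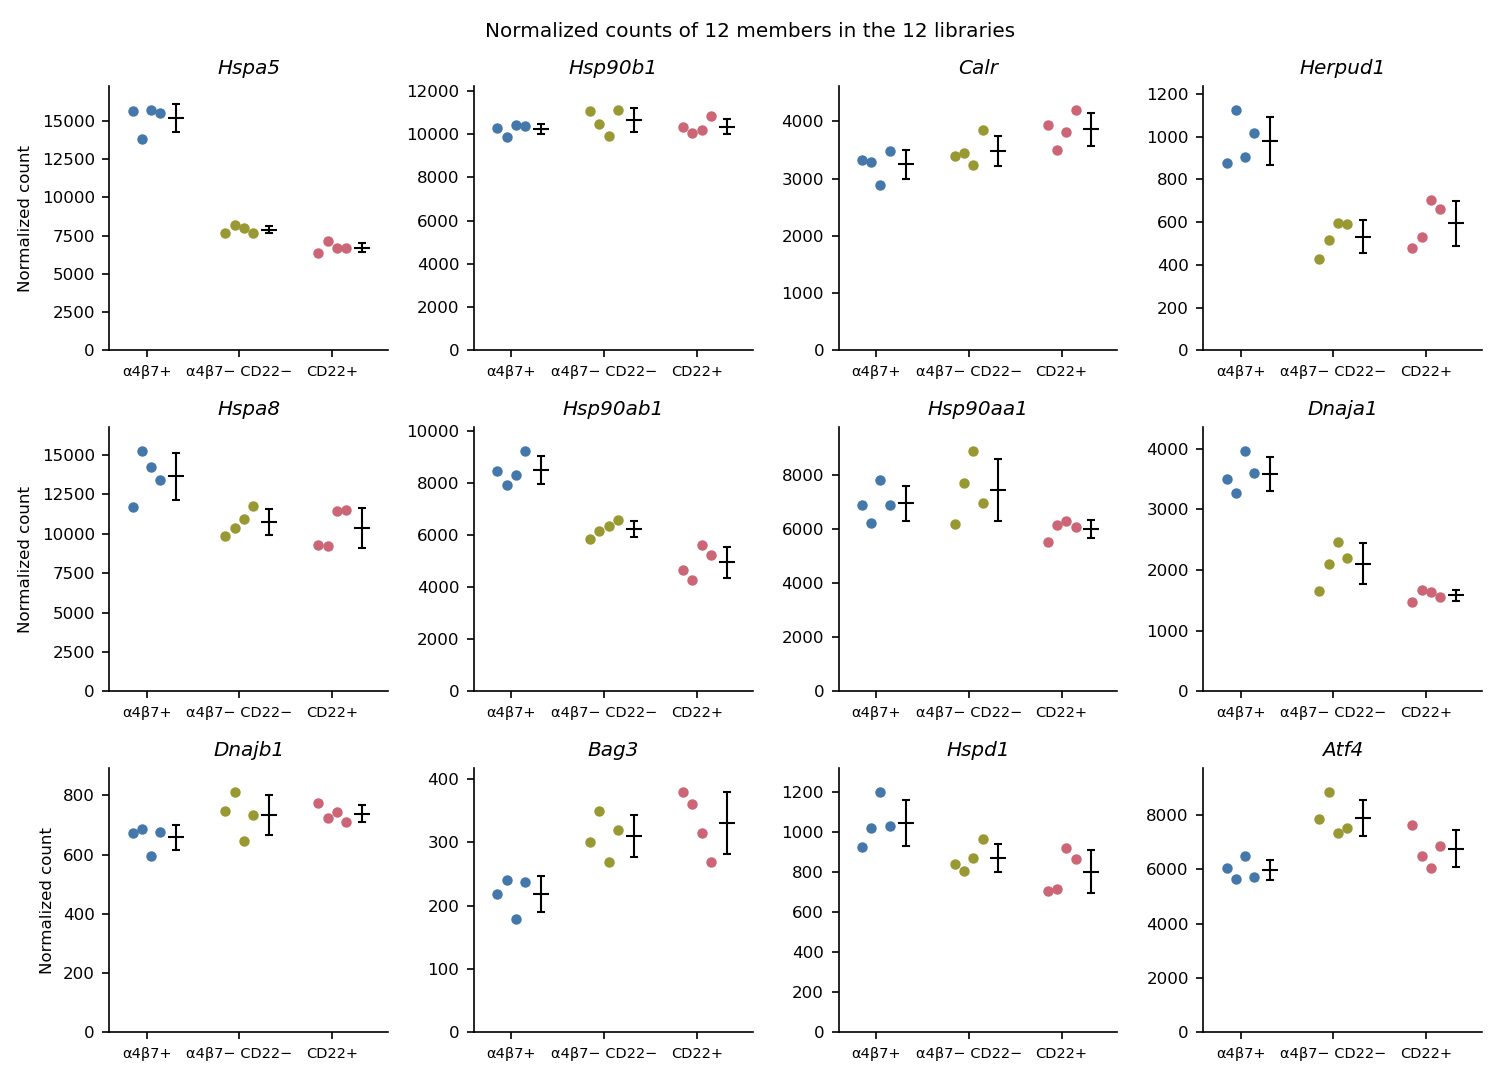
Normalized counts of 12 members (1 panel each, axis from 0) in the 4 libraries of each subset, with points in the order of library 1 to 4 and black bars for the mean and SD (n = 4). Hspa5, Herpud1, Hsp90ab1, and Dnaja1 lie lower in all α4β7− CD22− and CD22+ libraries than in any α4β7+ library, Bag3 lies higher, and Hsp90b1 overlaps between all 3 subsets.

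In the cytosolic class, the J-domain gene Dnaja1 fell the furthest. Dnaja1, at chr4:40722150-40737149 (plus strand), encodes a cochaperone that brings clients to HSP70. Its normalized counts were 3506, 3277, 3962, and 3601 in α4β7+, 1651, 2102, 2462, and 2194 in α4β7− CD22−, and 1468, 1671, 1637, and 1557 in CD22+ libraries. No α4β7+ library overlapped with another subset, and the log2 fold change was −0.78 (SE 0.11, limma adjusted p = 1.43e-04) in α4β7− CD22− and −1.18 (SE 0.11, adjusted p = 1.33e-06) in CD22+ libraries. Its relative Dnajb1, which encodes the J-domain protein most often used as a readout of HSF1 activity, averaged 658 ± 41.4, 734 ± 68, and 738 ± 28.1 (SD, n = 4 each) and did not pass in either comparison (log2 0.16 and 0.17, adjusted p = 0.294 and 0.225), except with equal totals in the second (0.33, adjusted p = 0.0104). The third J-domain gene, Dnajb4, had log2 fold changes of −0.28 and −0.31 (adjusted p = 0.174 and 0.10).

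The 2 cytosolic HSP90 genes also differed from each other. Hsp90ab1, the constitutive form at chr17:45567775-45573271 (minus strand), had normalized counts of 8481, 7936, 8323, and 9232 in α4β7+, 5837, 6148, 6369, and 6595 in α4β7− CD22−, and 4665, 4269, 5633, and 5245 in CD22+ libraries. The 3 subsets did not overlap, and the order was the same as for Dnaja1. Hsp90ab1 fell in CD22+ libraries (−0.78, SE 0.085, limma adjusted p = 8.16e-06), and in α4β7− CD22− libraries it was lower by the adjusted p alone (−0.45, SE 0.085, adjusted p = 0.00229). Hsp90aa1, the form that stress induces, averaged 6968 ± 649, 7444 ± 1150, and 6020 ± 336 and did not pass (0.087 and −0.21, adjusted p = 0.637 and 0.171). The ratio of Hsp90ab1 to Hsp90aa1 within a library averaged 1.23 ± 0.12, 0.85 ± 0.11, and 0.823 ± 0.089, and that of Dnaja1 to Dnajb1 averaged 5.49 ± 0.81, 2.90 ± 0.69, and 2.15 ± 0.18 (SD, n = 4 each). Parts of the Hsp90ab1, Hsp90aa1, Hspa8, and Dnaja1 transcripts are shared with other annotated genes at 90% identity or more (86.3%, 68.7%, 84.4%, and 24.9% of their length), but the gene with the longest match had a mean of at most 91.4 normalized counts.

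**Figure D4:**
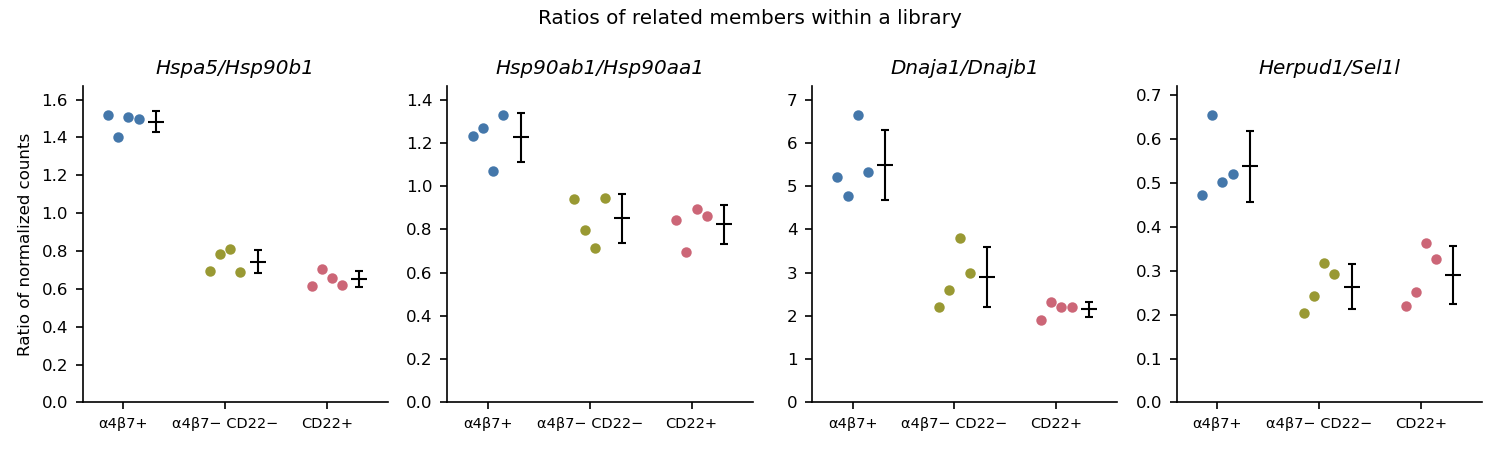
Ratio of the normalized counts of related members within each of the 12 libraries, with the axis from 0 and black bars for the mean and SD (n = 4). For all 4 pairs, each α4β7+ library lies above every library of the other subsets, and the mean ratio of Hspa5 to Hsp90b1 falls from 1.48 to 0.65.

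Among the other cytosolic chaperones, Hspa8 had normalized counts of 11717 to 15256 (median 13842) in α4β7+, 9851 to 11799 (median 10651) in α4β7− CD22−, and 9223 to 11501 (median 10395) in CD22+ libraries. It was lower by the adjusted p alone in both comparisons (−0.34, adjusted p = 0.0282, and −0.40, adjusted p = 0.00875), and Hspa4, a nucleotide exchange factor of HSP70, in the second (−0.28, adjusted p = 0.0304). With equal totals neither passed, with −0.25 and −0.24 for Hspa8 (limma adjusted p = 0.131 and 0.118) and −0.12 for Hspa4 (adjusted p = 0.3). With quantile normalization Hspa8 had smaller estimates still, −0.20 and −0.13 (adjusted p = 0.309 and 0.49). Hsph1, another exchange factor, averaged 383 ± 38, 281 ± 93.9, and 275 ± 98.8 (SD, n = 4 each) with wide spread and did not pass (adjusted p = 0.273 and 0.194). Hsf1, the transcription factor itself, had log2 fold changes of 0.069 and 0.25 (adjusted p = 0.718 and 0.102), of which the second passed with equal totals (0.40, adjusted p = 0.007), and Hspa1a and Hspa1b had intervals too wide to say much, from −0.66 to 1.78 for Hspa1a and −0.82 to 1.22 for Hspa1b between CD22+ and α4β7+. Without Hspa8, Hsp90ab1, and Dnaja1, chosen after their values were seen, the class summed to 12526 ± 518, 12598 ± 1290, and 11110 ± 301 normalized counts.

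Bag3 was the only member called higher in the fit reported, while Atf4, Calr, Dnajc3, and Eif2ak3 were higher by the adjusted p alone. Bag3, at chr7:128523616-128546981 (plus strand), encodes a cochaperone that links HSP70 to small heat shock proteins and to the selective autophagy of misfolded proteins. Its normalized counts were 219, 241, 179, and 237 in α4β7+, 301, 349, 269, and 319 in α4β7− CD22−, and 379, 360.3, 314, and 269 in CD22+ libraries. All α4β7+ libraries lay below the others, and α4β7− CD22− and CD22+ libraries overlapped. Bag3 rose in CD22+ libraries (0.59, SE 0.14, limma adjusted p = 0.00824), just past the fold change required, and in α4β7− CD22− libraries it was higher by the adjusted p alone (0.50, SE 0.14, adjusted p = 0.029). The call in CD22+ libraries was lost without α4β7+ library 3 (0.50), CD22+ library 1 (0.52), or CD22+ library 2 (0.54).

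The mitochondrial chaperones included no called gene. Hspd1 and Hspe1, which encode the chaperonin HSP60 and its partner HSP10, start back to back on chromosome 1, and the promoter of Hspe1 and the first of the 2 promoters listed for Hspd1 contain the same heat shock elements, searched as TTCNNGAANNTTC or GAANNTTCNNGAA on both strands. Such an element was in 0.603% of all promoters and, of the 31 members, at these 2 and at Hsph1. Only exact matches were counted. Promoters without one, such as those of Hspa1a, Hspa1b, Hspb1, Dnajb1, and Bag3, were not searched for looser elements. The overlapping matches, in capitals, are shown on the strand of each gene. The second Hspd1 promoter (chr1:55088194-55088493) held 0, and in GENCODE Hspd1 runs to 55088243, so by that annotation the match lies inside Hspd1 while it stays before the start of Hspe1 at 55088132. The match at Hsph1 lies after the start site of both its RefSeq promoters, at positions 16 and 37 from it, and inside the gene in GENCODE.
Hspd1 (chr1:55088054-55088081, minus): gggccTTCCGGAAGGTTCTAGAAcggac
Hspe1 (chr1:55088054-55088081, plus): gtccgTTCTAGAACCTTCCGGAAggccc
Hsph1 (chr5:149636283-149636305, minus): gcagaTTCTGGAAAGTTCtcctc

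Hspd1 was lower in CD22+ than in α4β7+ libraries by the adjusted p alone (−0.38, SE 0.11, limma adjusted p = 0.0217), with 922 to 1199 normalized counts in α4β7+ and 703 to 918 in CD22+ libraries, which did not overlap. It did not pass with equal totals (−0.23, adjusted p = 0.201). Hspe1 and Hsph1 had estimates of −0.46 and −0.56 in that comparison and −0.54 and −0.51 between α4β7− CD22− and α4β7+, with SE of 0.27 and 0.28, and did not pass. Hspa9, the mitochondrial HSP70, was level, with log2 fold changes of −0.046 and −0.017 (adjusted p = 0.822 and 0.932).

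The ER stress sensors and transcription factors had a median log2 fold change of 0.18 in α4β7− CD22− and 0.17 in CD22+ libraries over the 7 tested, and no member was called. Atf4, the transcription factor whose translation rises when eIF2α is phosphorylated, had normalized counts of 5649 to 6480 (median 5900.0) in α4β7+, 7335 to 8845 (median 7679) in α4β7− CD22−, and 6050 to 7647 (median 6671) in CD22+ libraries. The first 2 subsets did not overlap, and Atf4 was higher in α4β7− CD22− libraries by the adjusted p alone (0.40, SE 0.083, limma adjusted p = 0.00444) and did not pass in CD22+ libraries (0.17, adjusted p = 0.167), where it passed with equal totals (0.33, adjusted p = 0.00564) and quantile normalization (0.32, adjusted p = 0.00684). Eif2ak3, the eIF2α kinase of the ER, was higher in CD22+ libraries by the adjusted p alone (0.34, SE 0.09, adjusted p = 0.014), with 1382 to 1507 normalized counts in α4β7+ and 1621 to 1972 in CD22+ libraries. Ddit3, the proapoptotic factor CHOP downstream of ATF4, had estimates of 0.50 and 0.41 (adjusted p = 0.0875 and 0.138). In the first comparison it passed both thresholds without α4β7+ library 3 (0.65, adjusted p = 0.0286) or α4β7− CD22− library 4 (0.63, adjusted p = 0.0398). Ern1 (0.18 and 0.34), Atf6 (−0.057 and 0.074), Xbp1 (−0.13 and 0.013), and Trib3 (−0.43 and −0.37), an inhibitor that ATF4 and CHOP induce, did not pass, except that Ern1 and Ddit3 passed in CD22+ libraries with equal totals (0.50, adjusted p = 0.0127, and 0.57, adjusted p = 0.0338). Xbp1, which IRE1α activates by splicing its RNA, can be read here only for its total level, since gene counts do not separate the spliced form.

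Chac1, a glutathione-degrading enzyme that ATF4 induces, was below the filter. Its normalized counts were 1.09, 7.95, 5.55, and 2.31 in α4β7+, 7.01, 7.30, 7.05, and 3.10 in α4β7− CD22−, and 13.7, 9.33, 13.9, and 15.5 in CD22+ libraries. The CD22+ libraries lay above all others. A floor of 3 reads corresponds to about 2.56 to 3.48 normalized counts, and 3 of the 8 other libraries lay near or under it. Without the filter, its log2 fold change between CD22+ and α4β7+ was 1.63 (SE 0.60, limma adjusted p = 0.114). Hspb1 was listed at 1.84 to 11.8 normalized counts over the 12 libraries.

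Between CD22+ and α4β7− CD22− libraries, no member was called by limma, against 0.210% of all genes called higher and 0.393% called lower, and none passed the adjusted p alone, against 0.256% and 0.820%. At an unadjusted p under 0.05 there were 6 (16.7% of the 36, against 9.67% of all genes), of which Hsp90ab1, Dnaja1, Hspa5, Hsp90aa1, and Atf4 had lower and Dnajc3 higher estimates in CD22+ libraries. The smallest adjusted p was that of Hsp90ab1 (−0.34, 95% interval −0.52 to −0.16, adjusted p = 0.0818), whose libraries did not overlap. Libraries with the same number deviated together in this comparison, and when the number entered the model as a replicate block, its adjusted p was 0.0463, at a fold change still below 1.5. Hsp90ab1 also passed the adjusted p without CD22+ library 3. Dnaja1 passed it without α4β7− CD22− library 1 (limma adjusted p = 0.0173), and neither was called there. For Hspa5, the interval (−0.37 to −0.10) did not overlap with that between α4β7− CD22− and α4β7+ (−1.07 to −0.81, estimate −0.94). For Dnaja1, the intervals (−0.62 to −0.17, and −1.01 to −0.555 with estimate −0.78) overlapped. These comparisons share the α4β7− CD22− libraries, and the difference between them was not tested.

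**Figure D5:**
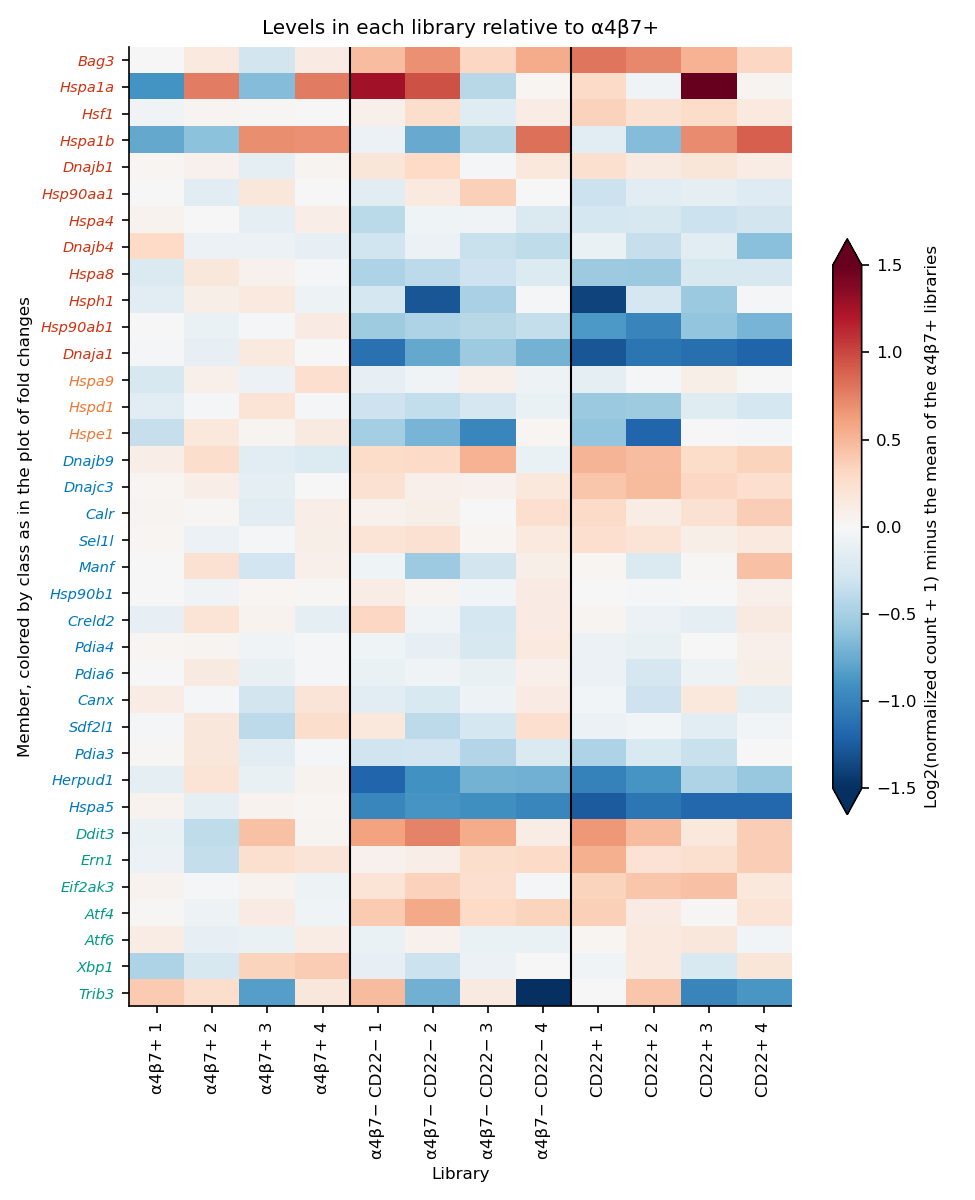
Log2(normalized count + 1) of the 36 members tested in each of the 12 libraries, minus the mean of the 4 α4β7+ libraries (red higher, blue lower, color scale limited to ±1.5), with members grouped and colored by class. Hspa5, Herpud1, Hsp90ab1, and Dnaja1 are blue in all 8 libraries of the other subsets, whereas Hspa1a, Hspa1b, Hsph1, and Trib3 vary within each subset.

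The median deviation of a library's 36 members from the mean of its subset lay between −0.051 (α4β7− CD22− library 3) and 0.07 (α4β7− CD22− library 4) on the log2 scale. Single members varied more between libraries of a subset than this median, as Xbp1 did in α4β7+ libraries.

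Genes of the same pathways outside the 38 were read from 6 lists with 133 genes tested. Between α4β7− CD22− and α4β7+ libraries, 1 rose and 5 fell, against 3.70% and 4.35% of all genes tested, and 6 was also the count for CD22+ against α4β7+, with 1 higher and 5 lower, against 5.60% and 6.39%, so for genes past the adjusted p and the fold change together these shares of the 133 were not above those of all genes. By the adjusted p alone, 6.02% were higher and 9.77% lower in the first comparison, against 7.13% and 7.73% of all genes, and 8.27% were higher and 16.5% lower in the second, against 10% and 11.1%. With equal totals these splits turned to 9.77% higher and 4.51% lower, against 11.8% and 5.63%, and to 25.6% higher and 7.52% lower, against 20% and 7.44%. Of 28 other ER folding enzymes tested, Rcn1, an ER calcium-binding protein, moved most, with 2883 ± 146, 1321 ± 124, and 831 ± 65.4 normalized counts (SD, n = 4 each) in the order α4β7+, α4β7− CD22−, and CD22+. It fell in all 3 comparisons (−1.13, −1.80, and −0.67, limma adjusted p = 7.28e-07, 2.71e-09, and 0.0012) and was the only 1 of the 133 called between CD22+ and α4β7− CD22−. Of 20 genes of the integrated stress response, Ddit4, an inhibitor of mTORC1, averaged 346 ± 50.7, 81.9 ± 21.7, and 61.9 ± 17.8, and Eif2s1, the eIF2α subunit that PERK phosphorylates, 862 ± 210, 532 ± 68.3, and 504 ± 95. Both fell in both comparisons with α4β7+ (Ddit4 −2.09 and −2.50, Eif2s1 −0.67 and −0.76). Cct5, a subunit of the cytosolic chaperonin, fell in CD22+ libraries (−0.66, adjusted p = 6.44e-05), and Htra2, a mitochondrial quality control protease, rose in both (1.06 and 1.24, adjusted p = 7.96e-04 and 1.16e-04). Of 23 other genes of ER-associated degradation, 0 were called, and 2 were higher and 0 lower by the adjusted p alone in each comparison with α4β7+. The called genes with averages under 100 were Fkbp2, Ern2, and Psat1. With libraries rescaled to equal totals, the called genes were 2 higher and 2 lower, against 5.38% and 3.31% of all genes, and 5 higher and 4 lower, against 9.91% and 4.52%, and without α4β7+ library 1 the first comparison had 3 calls.

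The 24 immediate early genes, which signaling and cell isolation both induce quickly, were read beside the members. Their summed normalized counts were 221474 to 275953 in α4β7+, 201847 to 225246 in α4β7− CD22−, and 151957 to 182568 in CD22+ libraries. Between CD22+ and α4β7+, 11 of 24 fell and 1 rose, against 6.39% and 5.60% of all genes, and 9 did not pass the adjusted p. Between α4β7− CD22− and α4β7+, 9 fell and 1 rose, against 4.35% and 3.70%, and 11 did not pass it. In the order of these 2 comparisons, Dusp2, a nuclear phosphatase of MAP kinases, had log2 fold changes of −3.38 and −2.88, Zfp36, an RNA-binding protein that destabilizes cytokine transcripts, −1.60 and −1.08, and Egr2, a transcription factor, 1.73 and 1.36. Between CD22+ and α4β7− CD22−, 2 of 24 fell and 0 rose, against 0.393% and 0.210% of all genes. They were Jun (−0.62) and Fosl1, whose average was under 100. By the adjusted p alone, 7 were lower and 0 higher, against 0.820% and 0.256%. The part of the immediate early genes in the members' differences was not tested.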

How the data were processed

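RNA was sequenced from α4β7+, α4β7− CD22−, and CD22+ SI eosinophils in 4 libraries per subset, grouped by the sample labels. The authors started from 3 ng of RNA with a stranded total RNA kit, trimmed reads with Trimmomatic 0.39, pseudoaligned them to mm10 with Kallisto 0.46.1, and normalized the counts with DESeq2 1.38.2 (tools and versions per the submitters' processing notes). These normalized counts are what the deposited table holds, as a signal that is not whole. Only 23.5% to 56.4% of the values up to 30 in a library lay within 5% of a whole multiple of the most frequent low value (0.852 to 1.16), so whole reads were not recovered, the depth is approximate, and tests for counts were not run. The floor of 3 reads covers counting error only. Whether the normalization differs between genes was not tested.

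Genes with an average above 10 were tested on log2(normalized count + 1), so that fold changes of low genes are understated, with limma 3.58.1 (R 4.3.3), all 3 subsets in 1 model and a mean-variance trend. SE and intervals are from this model. The members and lists were chosen with earlier results of these data known. Members called at least once are given in every library, and from the other lists at most 3 called genes per list and comparison with an average of at least 100. The libraries of 1 subset are separate samples, and nothing in the sources used here says which mice they share. Same-numbered libraries deviated together (r 0.135, 0.161, 0.177, and 0.203) for CD22+ and α4β7− CD22−. For α4β7− CD22− and α4β7+ their r was also above 0 in every pair but smaller (0.043 to 0.137, differently numbered pairs −0.163 to 0.058). For CD22+ and α4β7+ it was −0.059 to 0.182. This is a hint from the data that the numbers pair the libraries. The model reported has no replicate block, and the block was fitted as an alternative in all 3 comparisons.

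All 36047 gene identifiers matched GENCODE M21 (GRCm38), which gave coordinates and exon lengths, the latter over basic protein-coding transcripts. Shared transcript sequence was found with BLAST 2.17.0. Python 3.11.15 was used with pandas 2.3.3 for tables and matplotlib 3.10.9 for plots. The alternatives are named in the closing section. The raw reads were not used here.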

Additional observations from a re-analysis of the deposited data

Results flagged for a closer look

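In 7 of 114 groups of 4 libraries (38 members in 3 subsets), 1 library stood far from the other 3, by Dixon's test, and chance gives about 1 in 20. Hspa5 was low in α4β7+ library 2 (13793 normalized counts, others 15487 to 15706), which is still above all libraries of the other subsets. Dnajb1 was low in α4β7+ library 3 (596, others 671.9 to 686.5) and Dnajb4 high in α4β7+ library 1 (1194, others 895.5 to 915.6). Atf6 was high in α4β7− CD22− library 2 (1060, others 941.6 to 945.2). The others were at low levels, with Hspa1a high in CD22+ library 3 (61.32, others 14.45 to 18.62), Hspb1 high in α4β7− CD22− library 3 (5.054, others 2.726 to 3.107), and Chac1 low in α4β7− CD22− library 4 (3.096, others 7.015 to 7.302).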

How the results depend on the processing

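The results were recomputed with a pseudocount of 0.1 or 10, no filter or an average above 50, limma without the trend, quantile normalization, rescaling by the 75th percentile, only the subsets compared, the replicate block, the adjusted p alone, each library left out in turn, and, added after the data were seen, rescaling to equal totals. No member's direction reversed where it was called. Of 2367 fits of a member in a comparison other than those reported, leaving aside the adjusted p alone, 2357 stayed on the same side of the thresholds, 6 lost the call, and 4 gained it. Most of these fits were of members not called in that comparison, which could not lose a call. A changed sign without a call counted as staying. Losses concerned Bag3 in CD22+ libraries, also with a pseudocount of 10 (0.57) or quantile normalization, and Herpud1 under equal totals. With the replicate block, the counts of members called were 3, 5, and 0 as before, and no member's call changed, while 5, 6, and 1 other pathway genes were called in place of 6, 6, and 1. With the adjusted p alone, 8 and 11 members and 21 and 33 other pathway genes passed in the comparisons with α4β7+. With equal totals, 5 members were called between α4β7− CD22− and α4β7+, and the median of all genes moved from 0.003 to 0.097 there and from 0.014 to 0.17 for CD22+ and α4β7+. By the adjusted p alone, equal totals lost 2 members (Hspa8 and Pdia3) and gained 4 (Ddit3, Dnajc3, Eif2ak3, and Sel1l) in the first of these, and lost 3 (Hspa4, Hspa8, and Hspd1) and gained 8 (Atf4, Ddit3, Dnajb1, Dnajb9, Ern1, Hsf1, Hsp90b1, and Sel1l) in the second. The cause was not tested. With each library left out, 3 to 4, 4 to 5, and 0 members and 3 to 6, 5 to 7, and 1 other pathway genes were called in the 3 comparisons. The depth limits Hspa1a, Hspa1b, Hspb1, Chac1, and Trib3, which had averages under 40.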
